A study of Mus musculus with 4 samples.

Results

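Cytoplasmic ribosomal protein genes encode the protein subunits of the ribosome that translates mRNAs in the cytoplasm. Their promoters were followed in ATAC-Seq peak lists of mouse primary rib chondrocytes, the cells of cartilage. ATAC-Seq marks open chromatin by the sites where the Tn5 transposase inserts sequencing adapters. Members were protein-coding genes whose symbol is Rpl, Rps or Rplp followed by a digit, without the Rps6k kinases and the mitochondrial Mrp genes. There were 85 such genes among 20157 protein-coding promoters found by symbol in both annotations used here. A promoter counted as having a peak when a summit, the highest point of a peak, lay within 1 kb of the annotated start of the gene. Of the members, 75 encode core subunits of the usual cytoplasmic ribosome, with 42 in the large subunit, 30 in the small subunit and 3 in the stalk. A further 9 were paralogs or retrogenes, and 1, Rps19bp1, encodes a protein that binds a subunit.

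There were 4 libraries. The 2 Cho libraries, Rep1 and Rep2, were replicates of chondrocytes for which the labels give no genotype. WT and the E160/E308 deletion had 1 library each, from littermates of an intercross of mice heterozygous for both deletions. The genotype of the deletion library was E160(delta/delta);E308(delta/delta), made by 2 rounds of CRISPR editing in C57BL/6J mice, and it lacks, on both alleles, the E160 and E308 elements that lie upstream of Sox9, which encodes a master regulator of cartilage. All cells were primary chondrocytes from the ribs of newborn mice of either sex, and the labels give no treatment. Because each genotype had 1 library, every comparison of Del, the deletion library, with WT compares 2 libraries, not the genotypes, and has no test. In cell populations, a smaller share of cells with an open promoter and a less open promoter in every cell cannot be told apart.

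Ribosomal protein genes are expressed in nearly all cells, because every cell needs a matched supply of the subunits. Their mRNAs typically begin with a run of C and T bases, the 5′ terminal oligopyrimidine or TOP motif, through which the mTOR pathway controls their translation. Their promoters often lie in CpG islands, and binding sites of Sp, Ets and Yy1 factors have been described near their start sites.

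The lists held 76242 peak intervals in Cho Rep1, 148330 in Cho Rep2, 90971 in WT and 169591 in Del. The most frequent background pileup was 1.37, 1.96, 0.361 and 0.626 tags in the same order, so WT was the lowest by this measure. Cho Rep1 stood apart, since it used 1 constant background where the other lists used local ones. Cho Rep2 has positions of GRCm38 and the others of NCBIM37, and no position was converted between them. The elements are named by their distance upstream of Sox9 in kb. Within 1.5 kb of E308, the strongest summit had a fold enrichment of 15.4 in WT and 3.07 in Del. At E160 it was 13.4 in WT, and no peak was listed in Del. Of 7 chondrocyte markers, all had a promoter peak in Cho Rep2, WT and Del, and 3 had one in Cho Rep1. Both fibroblast collagen genes, Col1a1 and Col1a2, had a promoter peak in every library. Promoter peaks were listed for 0 or 1 of 3 muscle markers, 0 to 2 of 3 blood markers, 1 or 2 of 3 endothelial markers and 0 of 2 keratinocyte markers.

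Sequence is shown first for the members that lay at the ends of the ranking described further on. RefSeq promoter windows of GRCm38.p6, with 250 bases before each start and 50 from it, were found for 65 of the 85 members, in 77 windows. The stretches run from 80 bases before the annotated start to the 15th base of the transcript, 5′ to 3′ on the strand of the gene. Capitals mark the run of C and T that covers the annotated start, where there is one. These are the members with the highest mean rank in the 4 libraries.
Rpl31, chr1:39367771-39367865, plus strand: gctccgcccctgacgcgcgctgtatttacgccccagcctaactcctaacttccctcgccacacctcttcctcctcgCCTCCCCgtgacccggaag
Rps26, chr10:128626492-128626586, minus strand: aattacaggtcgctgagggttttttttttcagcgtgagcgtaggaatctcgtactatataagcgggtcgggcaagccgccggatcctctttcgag
Rpl15, chr14:18270972-18271066, minus strand: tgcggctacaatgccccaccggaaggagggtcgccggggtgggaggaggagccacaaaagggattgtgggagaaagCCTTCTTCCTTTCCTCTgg
Rps6, chr4:86857353-86857447, minus strand: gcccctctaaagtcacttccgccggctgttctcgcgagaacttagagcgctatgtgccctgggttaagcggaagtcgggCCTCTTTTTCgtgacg
Rpl36al, chr12:69184053-69184147, minus strand: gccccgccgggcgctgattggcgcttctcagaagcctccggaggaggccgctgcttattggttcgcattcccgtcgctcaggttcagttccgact
Runs of 7, 17 and 10 C and T bases cover the start in Rpl31, Rpl15 and Rps6, and none covers it in Rps26 and Rpl36al. The next stretches are from members with the lowest mean rank.
Rpl19, chr11:98026630-98026724, plus strand: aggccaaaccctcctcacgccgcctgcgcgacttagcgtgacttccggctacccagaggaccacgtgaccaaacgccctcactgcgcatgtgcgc
Rpl38, chr11:114668500-114668594, plus strand: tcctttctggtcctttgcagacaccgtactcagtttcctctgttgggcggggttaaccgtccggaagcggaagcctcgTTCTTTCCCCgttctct
Rpl10a, chr17:28328391-28328485, plus strand: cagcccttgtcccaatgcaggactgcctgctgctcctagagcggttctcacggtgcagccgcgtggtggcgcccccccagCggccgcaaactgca
Rpl4, chr9:64173307-64173401, plus strand: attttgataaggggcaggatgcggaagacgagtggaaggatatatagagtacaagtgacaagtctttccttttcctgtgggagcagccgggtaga
Here Rpl38 has a run of 10 over its start, Rpl10a has a single C there, and Rpl19 and Rpl4 have no C or T at the annotated start.

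Ribosomal protein promoters were open in nearly every case. A peak was found at 79 of 85 in Cho Rep1, or 92.9% (95% exact binomial interval 85.3% to 97.4%), where 58.5% of all promoters had one. Cho Rep2 had a peak at 76, or 89.4% (80.8% to 95.0%), against 64.8% of all promoters. WT had 78, or 91.8% (83.8% to 96.6%), against 62.1%, and Del also had 78, against 67.7%. The Cho mean was 91.2% ± 2.50 (SD, n = 2), and for all other promoters it was 61.6% ± 4.47. In all 4 lists together, 75 of 85 members were called, or 88.2% (79.4% to 94.2%), and 52.7% of all promoters were. Intervals cover counting error only.

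**Figure D1:**
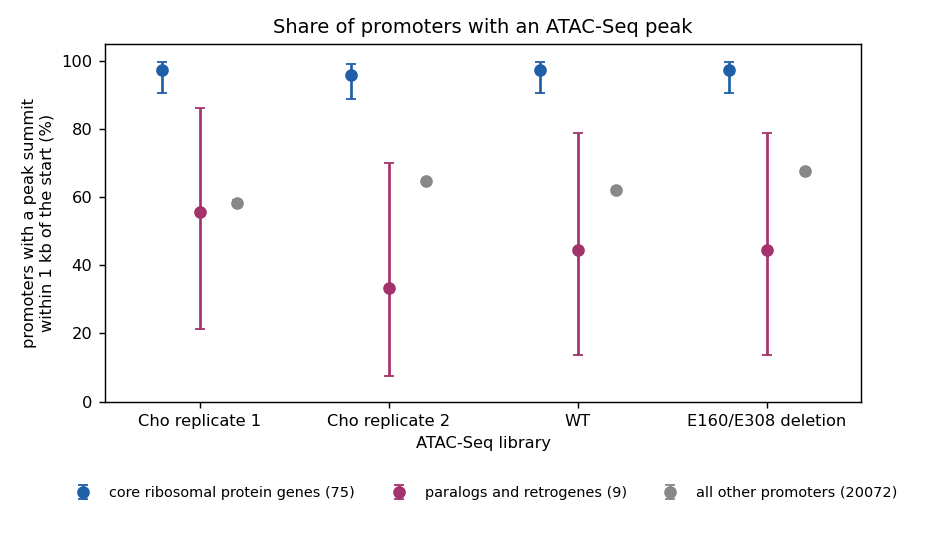
Share of promoters with a peak summit within 1 kb of the annotated start, in percent, for each of the 4 libraries. Points are shares of 75 core ribosomal protein genes, 9 paralogs and retrogenes and 20072 other promoters, and bars are 95% exact binomial intervals. The core genes lie between 96.0% and 97.3%, above the other promoters in every library, and the paralogs lie between 33.3% and 55.6%.

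The core subunits had nearly all of these peaks. The large subunit had a peak at 42 of 42 promoters in Cho Rep1, WT and Del and at 40 in Cho Rep2. The small subunit had one at 28 of 30 in those 3 libraries and at 29 in Cho Rep2. The stalk genes Rplp0, Rplp1 and Rplp2, whose products form the arm that recruits translation factors, had a peak in every library. Paralogs and retrogenes had one at 5 of 9 in Cho Rep1, 3 in Cho Rep2, 4 in WT and 4 in Del.

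Core members without a peak at the annotated gene end had one further along the gene. For Rps2, a small subunit protein, the nearest summit lay 1777 to 1926 bp downstream of the annotated 5′ end in the 4 libraries, with fold enrichments from 10.8 to 14.95. The only window of Rps2 in the RefSeq table starts 1942 bp downstream of that end, and the Cho Rep2 summit lay 112 bp upstream of this start. It is shown with Rps10, another small subunit gene. Rps10 had no peak at the NCBIM37 gene end, with nearest summits 1334 to 1385 bp downstream in the 3 libraries of that build, and had one 24 bp upstream of the GRCm38 start in Cho Rep2.
Rps2, chr17:24719983-24720077, plus strand: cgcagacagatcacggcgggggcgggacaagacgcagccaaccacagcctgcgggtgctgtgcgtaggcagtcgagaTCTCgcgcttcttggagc
Rps10, chr17:27635230-27635324, minus strand: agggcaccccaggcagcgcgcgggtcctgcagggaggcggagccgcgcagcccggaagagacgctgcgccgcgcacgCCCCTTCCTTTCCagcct
Runs of 4 and 13 C and T bases cover these starts. In Cho Rep2, Rpl22 had its nearest summit 1382 bp downstream of the gene end, at a fold enrichment of 22.8, and the paralog Rps27l 1370 bp downstream, at 25.5. Rpl17 was called in 3 libraries and had its nearest Cho Rep2 summit 1526 bp downstream, at a fold enrichment of 21.1. When any annotated transcript start counted, 75 of 75 core members had a peak in Cho Rep1, WT and Del and 74 in Cho Rep2. By the same definition, 62.4% of all promoters had one in Cho Rep1, 69.3% in Cho Rep2, 66% in WT and 71.4% in Del. The missing member was Rpl17. In Cho Rep2 the further starts came only from the RefSeq windows, which were found for 65 of the 85 members.

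Apart from Rpl17 in Cho Rep2, the members with no peak near any start were paralogs and retrogenes. Rpl3l, a paralog of Rpl3 known from skeletal muscle, had its nearest summit at -3626, -3356, -3446 and -3417 bp in Cho Rep1, Cho Rep2, WT and Del, where negative distances are upstream. Rpl10l, a retrogene known from testis, had none nearer than 6615 bp. Rps27rt, a copy of Rps27, had its nearest summit 3793 to 4303 bp downstream of its start. Rps23rg1, a retrogene of Rps23, had its nearest summit at 8494 bp in Cho Rep2 and between -8602 and -8654 bp in the others, and Del alone listed a weak summit, of fold enrichment 4.30, at another of its transcript starts. Rpl39l, known from testis, had a peak in Cho Rep1 only, where 11 tags gave a fold enrichment of 5.07.

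Paralogs with a peak ranked in the upper part of the lists of Cho Rep2, WT and Del, with class medians at percentiles 76.6, 77.8 and 76.9. In Cho Rep1 the class median was 43.9, and 2 of 5 were in the bottom 25%. Rpl36al had fold enrichments of 24.1 in Cho Rep1, 29.2 in Cho Rep2, 21.8 in WT and 15.9 in Del. Rpl22l1, a paralog of Rpl22, had 27.0, 25.04, 15.5 and 18.8 in the same order. Rpl7l1, related to Rpl7, had 5.07, 23.9, 16.4 and 16.3, so that Cho Rep1 was far below the other libraries. Rps27l had 11.0 in Cho Rep1, 16.8 in WT and 16.1 in Del at its gene start. Rps19bp1 had 8.45, 21.9, 11.8 and 10.4. Rpl36al starts 75 bp from the gene Mgat2 on the opposite strand, so its peak lies at the starts of both.

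Rps27 and Rps27rt are shown as a pair because they share the start of the transcript. Their windows share a stretch of 38 identical bases, which begins 1 base after the Rps27 start and at the Rps27rt start. Over the 100 bases before that stretch, 21 were identical.
Rps27, chr3:90213634-90213728, minus strand: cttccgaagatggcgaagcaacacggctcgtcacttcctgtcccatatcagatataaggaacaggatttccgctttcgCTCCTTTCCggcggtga
Rps27rt, chr9:114982725-114982819, minus strand: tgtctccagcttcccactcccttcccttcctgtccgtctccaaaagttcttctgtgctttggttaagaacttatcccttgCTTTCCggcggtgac
At Rps27, fold enrichments were 17.7, 26.0, 16.6 and 15.7 in Cho Rep1, Cho Rep2, WT and Del. At Rps27rt no library listed a peak within 1 kb. Rps27 starts 44 bp from Rab13 on the other strand, so the Rps27 peak lies at a shared promoter.

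Among promoters with a peak, ribosomal protein promoters were of middle strength, with fewer weak ones than other promoters had. Fold enrichment is the summit pileup over background with 1 added to both, and it can be ranked within a list. The median of the members was 13.1 in Cho Rep1 and 12.2 for all other promoters with a peak. In Cho Rep2 the medians were 19.96 and 17.7, in WT 14.2 and 12.7, and in Del 13.0 and 12.5. The median member stood at percentile 53.2, 58.9, 61.2 and 53.9 of the promoters with a peak in Cho Rep1, Cho Rep2, WT and Del. The top 25% of each list by fold enrichment held 21 of 79 members, or 26.6%, in Cho Rep1, where it held 25.2% of all promoters because of ties. It held 27.6% in Cho Rep2, 33.3% in WT and 29.5% in Del, where the background is 25%. The bottom 25%, again with a background of 25%, held 17.7% of members in Cho Rep1, 7.89% in Cho Rep2, 12.8% in WT and 11.5% in Del. These are shares of members that passed the peak caller.

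**Figure D2:**
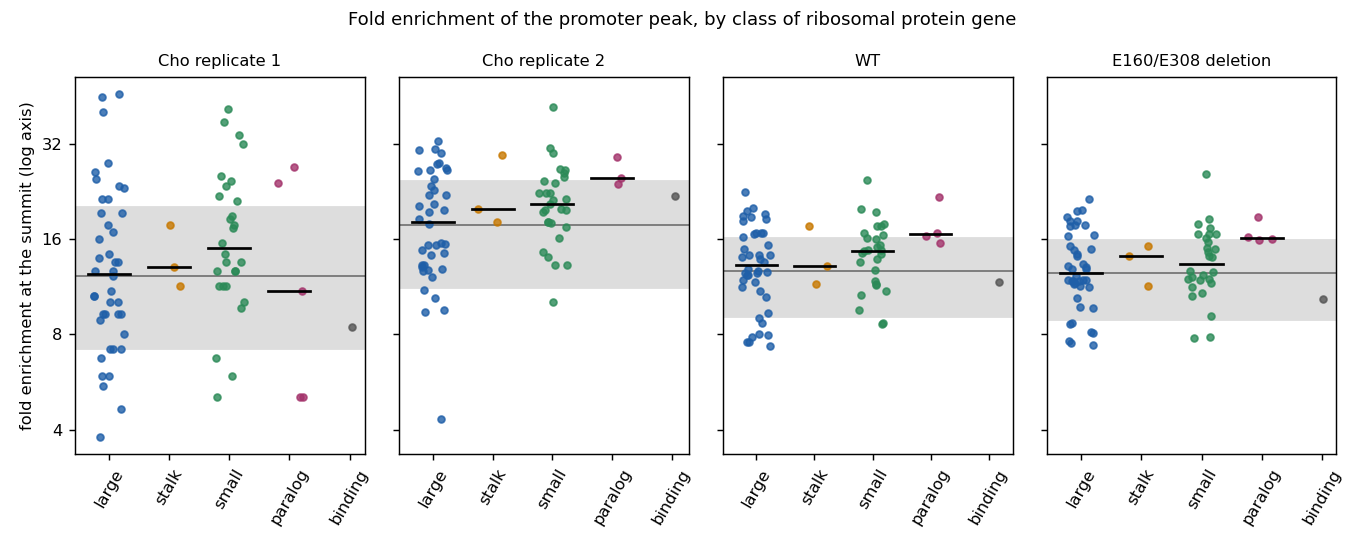
Fold enrichment at the summit of each member's promoter peak, on a log axis, by class (large subunit, stalk, small subunit, paralogs and retrogenes, binding protein) in the 4 libraries. Points are genes, black bars are class medians where a class has more than 2 genes, and the grey band and line are the quartiles and median of all other promoters with a peak. Most members lie inside or above the grey band, and in Cho Rep1 they spread widest, from 3.80 to 46.0.

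The spread among members was narrower than among other promoters. In WT, the quartiles of members were at fold enrichments of 11.6 and 16.7, and those of other promoters at 9.05 and 16.1. The coefficient of variation of the members was 0.27 in WT and in Del, 0.33 in Cho Rep2 and 0.60 in Cho Rep1. For other promoters it was 0.37, 0.38, 0.48 and 0.74 in the same order. The lists that used local backgrounds kept the order of members well, with Spearman correlations of 0.84 between WT and Del over 78 members, 0.83 between Cho Rep2 and WT over 75, and 0.85 between Cho Rep2 and Del. Cho Rep1 had 0.46 with Cho Rep2, 0.53 with WT and 0.34 with Del. Over all other promoters the same 6 values ran from 0.39 to 0.86. By tags at the summit, without division by a background, Cho Rep1 had 0.68 with Cho Rep2, 0.71 with WT and 0.66 with Del over members. The other pairs had 0.84 to 0.88 by tags. These correlations are across genes that share a library and its depth.

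**Figure D3:**
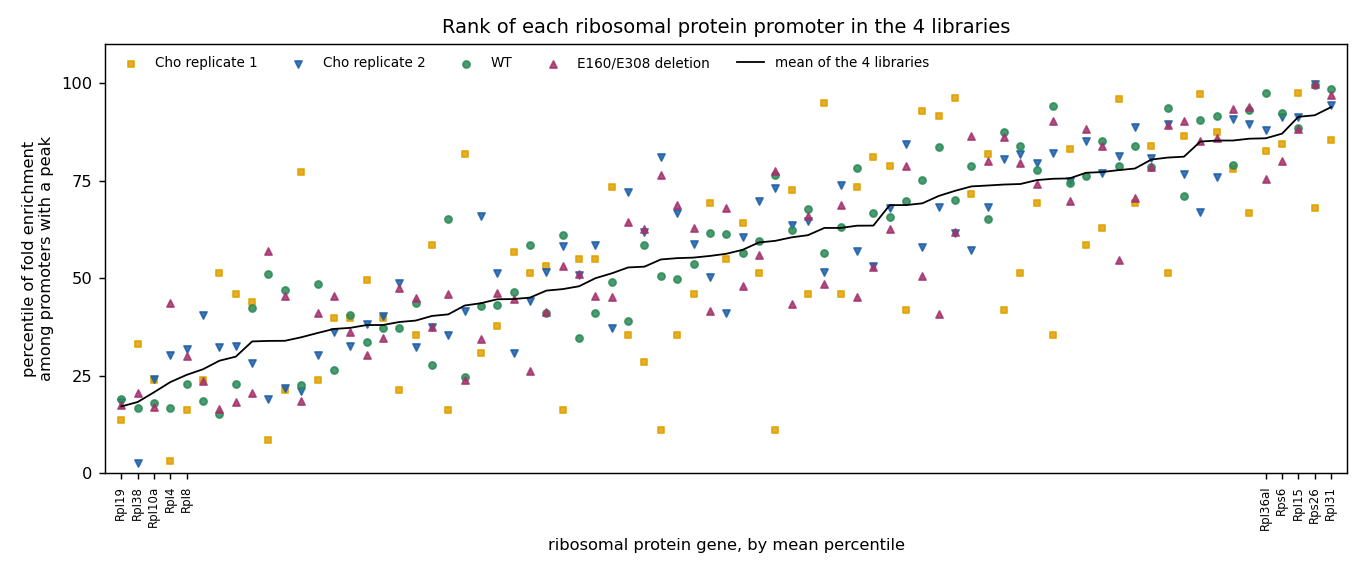
Percentile of fold enrichment among all promoters with a peak in the same library, for the 75 members with a peak in all 4 libraries, ordered by their mean percentile (black line), with the 5 lowest and 5 highest named. Symbols mark the libraries. Rpl31 is at the upper end and Rpl19 at the lower, and the Cho Rep1 squares stray farthest from the line in the middle of the order.

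Of the 75 members called in every library, 7 were in the top 25% in all 4, or 9.33%, and 8.66% of all promoters called in all 4 were. They were Rpl15, Rpl21, Rpl30, Rpl31, Rpl34, Rpl36al and Rps6. Only Rpl10a and Rpl19, or 2.67%, were in the bottom 25% in all 4, and 5.42% of all such promoters were. A member's highest and lowest percentile were 27.5 points apart in the median, and those of other promoters 29.2 points.

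Rpl31, a large subunit protein near the exit of the peptide tunnel, ranked highest. Its fold enrichment was 26.2 in Cho Rep1, 32.9 in Cho Rep2, 22.6 in WT and 21.5 in Del, from 61, 357, 55 and 72 tags at the summit. Summits lay 29 to 56 bp upstream of the start in the 4 libraries. Rps26, a small subunit protein near the exit of the mRNA channel, had 17.3, 41.9, 24.6 and 25.7 in the same order. Its summits lay between -330 and -313 bp in every library, outside the stretch printed for it. Rps25, named after its values were seen and also in the small subunit, was the other member whose summits all lay more than 200 bp upstream, at 342 to 488 bp, and Trappc4 starts 166 bp upstream of it on the opposite strand.

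Rpl15, a large subunit protein, had fold enrichments of 46.0, 31.0, 18.5 and 18.2 and had 108 tags at its Cho Rep1 summit. Its summits lay 173 bp upstream of the GRCm38 start and 257 to 327 bp downstream of the NCBIM37 start, close to the start of Nkiras1, which lies 255 bp downstream of that start on the opposite strand. Rps6, the subunit that S6 kinases phosphorylate, had 25.3, 31.0, 19.5 and 16.7, with summits within 28 bp of the start. Among the stalk genes, Rplp0 had 17.7, 29.6, 17.6 and 15.2, with summits 78 to 86 bp upstream of its start. Rplp1 had 11.4, 19.95, 13.2 and 14.2, and Rplp2 had 13.1, 18.1, 11.5 and 11.4, so both stood below Rplp0 in each library.

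Rpl19 ranked lowest, with 5.49, 9.39, 8.05 and 7.65 in Cho Rep1, Cho Rep2, WT and Del. Its RefSeq gene end lies 4707 bp upstream of the start shown above. With any transcript start in place of the gene end its Cho Rep2 value was 10.4, and it remained the lowest member by mean percentile. Rpl38, a large subunit protein, had 8.87, 4.31, 7.60 and 8.11, from 20, 108, 22 and 38 tags. Rpl10a, which lies at the stalk on the other side from the Rplp proteins, had 7.18, 11.1, 7.86 and 7.49. Rpl4, which lines the peptide tunnel, had 3.80, 12.7, 7.57 and 11.6. The Rpl4 summits lay 512 and 515 bp upstream in Del and Cho Rep2, and 70 and 146 bp downstream in WT and Cho Rep1. Zwilch starts 283 bp from it on the other strand. Rpl8 had 5.91, 13.1, 8.69 and 9.72, with summits 19 to 79 bp upstream.

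There were 4 core members on the X chromosome, and the mice were of either sex. Rpl39 had 13.5, 15.5, 14.2 and 14.8 in Cho Rep1, Cho Rep2, WT and Del, the narrowest range among these genes. Rpl10 had 12.7, 13.2, 7.35 and 7.40, with summits 168 to 614 bp upstream. Rps4x had 5.07, 26.5, 12.8 and 16.1, lowest in Cho Rep1. Rpl36a had 14.4, 27.9, 16.3 and 18.3. The X-linked median of fold enrichment was 13.5 in WT and 15.5 in Del, and that of autosomal core members was 14.04 and 12.7. By tags at the summit over the background of the library, both medians were lower in Del. The X-linked ones were 73.4 in WT and 64.7 in Del, and the autosomal ones 88.6 and 75.1. By this measure all 4 X-linked genes were lower in Del, with a median log2 ratio of -0.16. Autosomal core members had -0.32, and other promoters -0.26. By fold enrichment all 4 X-linked genes were higher in Del, with a median log2 ratio of 0.11, and autosomal core members had -0.07.

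Summits lay close to the start. The median member had its summit 26 bp upstream of the annotated start in Cho Rep1, 39.5 bp in Cho Rep2, 23 bp in WT and 20.5 bp in Del. Within 100 bp of the start lay 63.3% of member summits in Cho Rep1, 72.4% in Cho Rep2, 75.6% in WT and 69.2% in Del. For other promoters with a peak these shares were 50.1%, 50.6%, 55.5% and 53.0%. Other genes of translation were also above these, and cytoplasmic aminoacyl-tRNA synthetases stood above the members, at 90%, 88.9%, 90% and 85%. Ribosome biogenesis genes had 72%, 66.7%, 61.5% and 68%, and mitochondrial ribosomal protein genes 58.9%, 68%, 61.8% and 66.2%. Translation factors had 53.5%, 56.3%, 60.6% and 62.0%, but the 6 genes that control TOP mRNAs had 33.3% in each library. In all 4 libraries at once, 32 of 75 members, or 42.7%, were that close, where 30% of all promoters called in all 4 were. Distances depend on the annotated start, which differs between the builds.

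**Figure D4:**
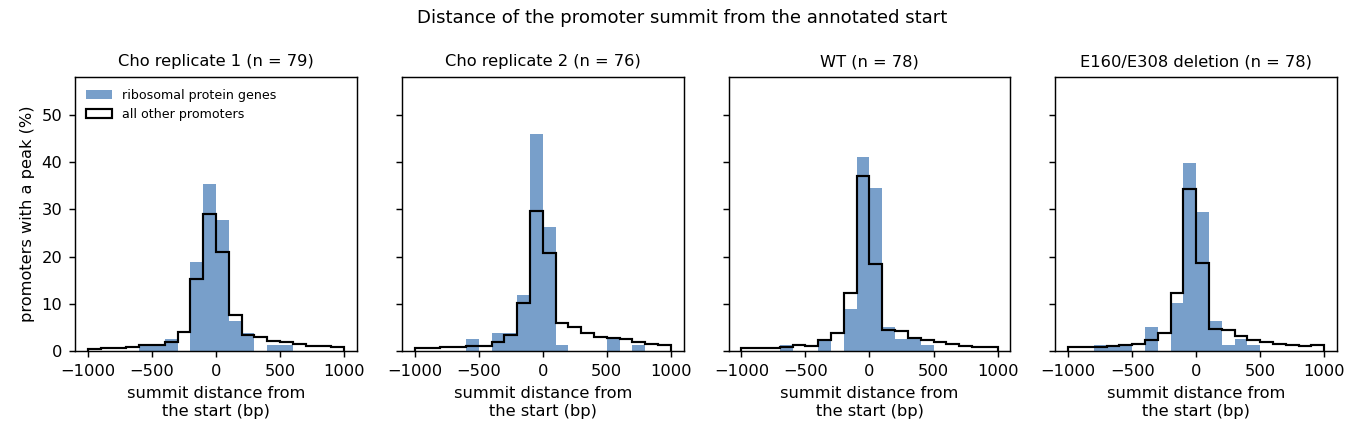
Distance of the promoter summit from the annotated start in bp, negative upstream, in bins of 100 bp, as a percentage of promoters with a peak. Filled bars are ribosomal protein genes, with their number above each panel, and the black outline is all other promoters. Member summits gather within 100 bp on either side of the start more than the outline does, and few lie beyond 500 bp.

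Peaks of members were close in width to those of other promoters in WT, with a median of 326.5 bp against 356 bp for other promoters, and in Del, with 470 against 448 bp. The medians were 782 against 835 bp in Cho Rep1 and 809 against 729 bp in Cho Rep2. One peak stood alone within 1 kb at 79.7% of members with a peak in Cho Rep1, 82.9% in Cho Rep2, 71.8% in WT and 61.5% in Del. The shares for other promoters were 86.3%, 77.2%, 61.0% and 48.8% in the same order, so that of members was lower in Cho Rep1 and higher in the other libraries. Beyond the promoter, between 1 and 10 kb from the start, the 85 members had more further summits than other promoters with a peak. The mean number was 1.58 against 0.98 in Cho Rep1, 2.36 against 1.70 in Cho Rep2, 1.59 against 1.06 in WT and 2.54 against 1.84 in Del. The genes around members were not matched for this count.

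Some ribosomal protein genes start beside a gene on the opposite strand or carry small nucleolar RNAs in their introns. An opposite gene start lay within 1 kb of 12 of 75 core members and of 2175 of 20072 other promoters. These had a median fold enrichment of 12.5 in WT, and the other 62 core members with a peak had 14.1. In Cho Rep2 the order was turned, with 21.3 and 19.8. Other promoters with such a neighbor had 14.4 in WT and 21.3 in Cho Rep2. The 29 core members that host 55 small nucleolar RNAs had median fold enrichments of 12.9 in Cho Rep1, 18.1 in Cho Rep2, 14.04 in WT and 12.9 in Del, and core members without them had 13.5, 19.96, 14.04 and 12.7. The top 25% of the WT list held 21.4% of hosts with a peak and 37.8% of the others. These shares were 18.5% and 31.1% in Cho Rep2 and 21.4% and 28.9% in Del. Cho Rep1 went the other way, with 32.1% and 22.2%.

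Several sequence features were more frequent in member windows than in all windows. Motifs were searched on both strands of the 300-base windows as exact letters, and a match is a description of the sequence, not a site of binding. The Ets family core ACTTCCG was in 28.6% of 77 member windows and in 8.76% of the 19800 windows of all promoters. AAGATGG, the core of Yy1 sites, was in 15.6% and 6.32%. GCGCATG, of Nrf1, was in 11.7% and 4.97%, and TGACGT, of the Creb family, in 15.6% and 8.74%. The Sp family letters GGGCGG were in 58.4% and 48.0%, and in 61.8% of other windows whose gene had a Cho Rep2 peak. CACGTG, the E-box, was in 10.4% and 8.13%. CCAAT, of Nf-y, was in 29.9% and 38.2%, and TATAAA, the letters of the TATA box, in 9.09% and 12.2%. Among other windows whose gene had a Cho Rep2 peak, TATAAA was in 7.44%, a share below that of members, and CCAAT in 37.8%. The Ets, Yy1, Nrf1, Creb and E-box letters were in 11.65%, 6.58%, 6.39%, 10.8% and 9.43% of those windows. By gene, 21 of 65 members held the Ets letters. The median start of a match lay 31 bases upstream of the annotated start. In Cho Rep2, the library on the build of the table, the median percentile of members with a peak was set beside each motif. The percentile is that of the peak at the gene end, but a motif can lie in a window at another start. The Rpl18 window with motifs starts 2604 bp downstream of its gene end, and the nearest such window of Rpl19 4707 bp downstream. The median percentile was 66.4 with the Ets letters over 20 genes and 53.2 without them over 37. With the letters TATAAA anywhere in a window it was 76.6 over 5 genes, and 58.3 without them. Counted from the start, these letters began at 3 in Rpl36a, 17 in Rplp0, 37 in Rps28, -96 in Rpl39, and -32 and -28 in Rpl22l1. For the other 6 motifs the members holding it had the lower median, with 37.4 and 60.4 for Yy1, 50.4 and 66.4 for the Creb family, 55.5 and 66.7 for Nf-y, 57.99 and 63.6 for the Sp family, 54.8 and 61.9 for the E-box, and 55.4 and 58.9 for Nrf1. Rpl31, Rps6 and Rpl36al hold the Ets letters, and so does Rpl19, the lowest member.

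Runs of C and T at the start were more frequent in member windows than in all windows, though in most member windows no such run covered it. A run of at least 5 C or T bases covered the annotated start in 28.6% of member windows and in 8.59% of all windows. Within 30 bases on either side, a run of at least 10 was found in 35.1% and 10.9%. The start base was C in 29.9% of member windows and in 13.8% of all windows. Median GC content was 58% in member windows, 57% in those of other promoters and 60.7% in those of other promoters with a Cho Rep2 peak. The ratio of observed to expected CpG had a median of 0.86 in member windows, 0.74 in windows of other promoters with a Cho Rep2 peak and 0.22 in those without one. Among paralogs and retrogenes without a Cho Rep2 peak near any start, Rpl3l had 0.09 and Rps23rg1 0.22. Rpl10l had 0.64 and Rps27rt 0.63, close to the 0.59 of all windows, and Rpl39l had 0.84, near the median of members.

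Between Del and WT, ribosomal protein promoters differed little, and most of them stood a little lower in Del. Over 78 members called in both, the median log2 ratio of fold enrichment, deletion to WT, was -0.07, and that of 12403 other promoters was 0.02. It was below 0 at 51 members, or 65.4%, and at 47.5% of other promoters. A second measure divided the number of tags at each summit by the most frequent background of its library. By this scaled pileup the median log2 ratio was -0.32 for members and -0.26 for other promoters, and it was below 0 at 72 of 78 members, or 92.3%, and at 78.4% of other promoters. The scaled ratio varied with the level of the peak. Promoters were split into 4 equal parts by mean level. In the highest of them the median was -0.40 for 22 members and -0.42 for others, in the next it was -0.30 for 30 members and -0.29 for others, and in the next -0.23 for 25 members and -0.15 for others. The lowest held 1 member.

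**Figure D5:**
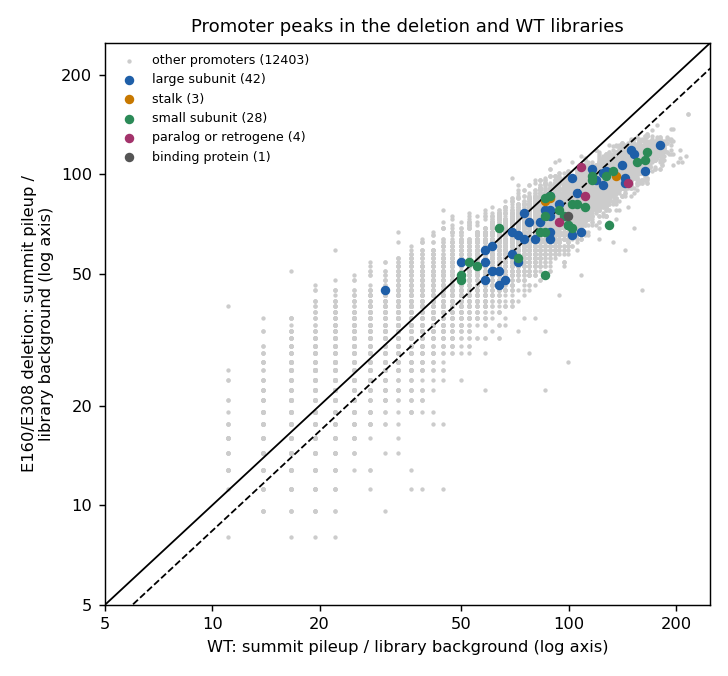
Summit pileup over library background in Del against WT, both on log axes, for promoters with a peak in both. Coloured points are the members by class, with their numbers, grey points are other promoters, the solid line marks equal values and the dashed line the median ratio of other promoters. Members lie among the grey points along the dashed line, 72 of 78 of them below the solid line.

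By scaled pileup, no member was at least 1.5-fold higher in Del, where 2.32% of all promoters called in both were. At least 1.5-fold lower were 7 members, or 8.97%, and 6.51% of all promoters. Among them were Rps12, Rpl23a, Rpl22, Rpl36al and Rpl18. Each ratio has a 95% counting interval from its 2 tag counts. The interval lay below 1 for 9 of 78 members, or 11.5%, and for 4.86% of all promoters, and it held 1 for the other 69. The median log2 ratio of other promoters was itself -0.26, so an interval below 1 does not place a member below other promoters. Neither these shares nor those at 1.5-fold were matched for level. The lowest part by mean level held 1 member and 3120 other promoters, so the shares do not show an effect particular to members.

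Rps12, a small subunit protein, had 31 tags at its summit in both libraries, for a ratio of 0.58 (0.34 to 0.98). Its fold enrichment was 12.7 in Cho Rep1, 16.2 in Cho Rep2, 13.9 in WT and 9.15 in Del. These values come from lists with different backgrounds, and Rps12 was named for its low ratio. Rpl23a, in the large subunit, had 39 tags in WT and 42 in Del, for 0.62 (0.39 to 0.99). Rpl22 had 37 and 41, for 0.64 (0.40 to 1.02), an interval that holds 1.

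At the other end, Rpl4 had 11 tags in WT and 28 in Del, for a ratio of 1.47 (0.71 to 3.27), but the compared summits were 582 bp apart. Rpl32 had 18 and 34, for 1.09 (0.60 to 2.05), with summits 318 bp apart. Rps9 had 23 and 43, for 1.08 (0.64 to 1.87), Rps15a had 19 and 34, for 1.03 (0.57 to 1.92), and Rpl8 had 27 and 48, for 1.03 (0.63 to 1.71). Over all, 72 of 78 members had summits within 100 bp of each other in the 2 libraries. With 1 library a genotype, no spread between replicates was available for these ratios.

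Of the subunits that the symbol rule leaves out, Rpsa, Fau and Rack1 had a peak in all 4 libraries. Fau, which encodes a ubiquitin-like protein fused to a small subunit protein, had 9.29, 9.51, 10.6 and 9.11 in Cho Rep1, Cho Rep2, WT and Del. Rpsa had 17.3, 17.4, 12.5 and 12.4. Rack1, a scaffold on the small subunit, had 22.4, 17.6, 14.1 and 12.9. Rpl41, found in the RefSeq list only, had a Cho Rep2 summit 66 bp upstream, with a fold enrichment of 13.2.

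Other genes of translation also had promoter peaks in most cases. Mitochondrial ribosomal protein genes had a peak in all 4 libraries at 69 of 78 promoters, translation factors at 69 of 76, cytoplasmic aminoacyl-tRNA synthetases at 18 of 20, ribosome biogenesis genes at 23 of 26 and 6 of 6 genes that control TOP mRNAs, where 52.7% of all promoters did. Their order by strength differed between libraries. The median percentile of mitochondrial ribosomal proteins was 45.8 in Cho Rep1, 75.7 in Cho Rep2, 61.6 in WT and 72.0 in Del, where the cytoplasmic members had 53.2, 58.9, 61.2 and 53.9. Synthetases stood above the cytoplasmic members in each library, at 64.2, 79.1, 83.3 and 78.2, as did translation factors, at 56.7, 64.7, 64.1 and 62.3. Ribosome biogenesis genes had 47.7, 59.5, 55.2 and 60.2. The Sox9 promoter stood at percentile 71.6, 26.6, 27.1 and 23.7 in Cho Rep1, Cho Rep2, WT and Del. That of Col2a1, the main collagen gene of cartilage, stood at 8.47, 6.57, 6.27 and 5.70, below each of the members in WT and Del. These ranks are of fold enrichment, which divides by background. By tags at the summit, Col2a1 had 10, 274, 33 and 53 in the same order. The median member had 30, 205, 33 and 47 tags, so Col2a1 was below it in Cho Rep1 only.

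Ribosomal protein pseudogenes, which are mostly copies of the mRNA without the promoter, had summits about as often as all pseudogenes. Away from gene starts by 2 kb or more, 6 of 144 had a summit in their body or within 1 kb in Cho Rep1, or 4.17%, and 3.93% of all such pseudogenes did. WT had 7, or 4.86%, against 6.85%, and Del had 15, or 10.4%, against 11.6%. In Cho Rep2, on the RefSeq list, 28 of 302 had one, or 9.27%, against 9.89%. A summit inside the body was found at 1 of 144 in Cho Rep1, or 0.694%, and at 1.25% of other pseudogenes. Cho Rep2 had 1 of 302, or 0.331%, against 4.48%. WT had 0 of 144, with an exact interval that reaches 2.53%, against 2.38%, and Del had 3, or 2.08%, against 4.22%. Of 16 pseudogenes with a summit in the 3 libraries of NCBIM37, 3 had one in each of them, and these were Rpl21-ps7, Rpl21-ps8 and Rpl38-ps1, named after their values were seen. Reads from near-identical copies may be placed at more than one of them, and this was not tested.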

How the data were processed

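ATAC-Seq was done on primary rib chondrocytes in 4 libraries. According to the methods and labels, reads were trimmed with fastp, aligned to mm9 with Bowtie2 2.4.4, freed of duplicates with Picard 2.20.7 and handled with SAMtools 1.9, and peaks were called in each library with MACS2 2.2.4 at a q-value of 0.05. The positions of Cho Rep2 fit GRCm38, so its promoters came from RefSeq and those of the other lists from GENCODE on NCBIM37. The deposited peak lists give the fold enrichment of each summit, a linear ratio over background, its −log10 p-value and q-value, and a score made by the authors' caller from the q-value.

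From these, 1 summit per interval was kept, the one with the highest fold enrichment, and each promoter took the strongest summit within 1 kb. Tags at a summit were solved from its fold enrichment and −log10 p-value, which gave a whole number for 100% of entries. Dividing them by the most frequent background of the library gave the scaled pileup. Ratios of the deletion to WT have 95% exact counting intervals from these tags, and duplicates removed before calling make tags close to but not the same as molecules, so intervals cover counting error only. Read totals are not given, and depth is known only through tags and background.

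Named genes were the 5 highest and 5 lowest by mean percentile among members called in all 4 libraries, every member without a peak in a library, the 5 highest and 5 lowest by scaled ratio, the X-linked members, paralogs and binding proteins, and the subunits outside the symbol rule. Some genes that this rule names are not reported here. The members and lists were chosen with earlier results of these data known. Tests were not possible with 1 library a genotype. Other windows, a stricter q-value, other starts, the nearest summit, other member sets, every listed summit and each Cho replicate alone were tried as alternatives. The steps were tested on simulated data. The software was scipy 1.17.1, pandas 2.3.3 and numpy 2.4.6 under Python 3.11.15.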

Additional observations from a re-analysis of the deposited data

How the results depend on the processing

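Of 132 values recomputed under the alternatives, 122 stayed within their error and 10 moved. None changed sign, which shares, fold enrichments and percentiles cannot do. Some could not move at all. Every listed summit gives the same values in Cho Rep2, WT and Del, whose lists hold a single summit per interval. Leaving out 1 of the 2 Cho replicates always stays within their SD. With core members only, the share with a peak was 96.0% in Cho Rep2, 97.3% in WT and 97.3% in Del, and 94.7% in all 4 libraries. With summit pileup over library background in place of fold enrichment, the member medians were 21.9, 104.8, 91.4 and 75.1 in Cho Rep1, Cho Rep2, WT and Del, which is another scale by construction. With it the median percentile in Cho Rep2 was 69.9, and the median log2 ratio of the deletion to WT was -0.32, beside -0.26 for other promoters. The mean share over the Cho replicates was 89.4% without replicate 1 and 92.9% without replicate 2. No paired analysis was possible because each genotype had a single library and no result comes from a test. Peak lists hold only what passed the caller, so a promoter without a peak may be open below its threshold, and levels between libraries depend on a background that was constant in Cho Rep1.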
